A study of Homo sapiens with 6 samples.

Results

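Tripartite motif (TRIM) proteins carry, as a rule, a RING domain, 1 or more B-boxes and a coiled coil, and most of them are E3 ubiquitin ligases that attach ubiquitin to themselves, to viral proteins or to signalling proteins. Several are themselves interferon-stimulated genes, and some act as restriction factors that recognise a virus inside the cell. Others tune the sensors, adaptors and kinases upstream of interferon production, in either direction. The 9 genes described here are TRIM5, TRIM14, TRIM21, TRIM22, TRIM26, TRIM34, TRIM38, TRIM56 and TRIM69. They were picked by symbol from the 57820 genes of the deposited table, each matched 1 row, and all 9 passed the filter for low counts.

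The libraries came from M14 cells, a human melanoma line that stably carries a doxycycline-inducible shRNA against STAG2, a core subunit of cohesin, and that was kept under puromycin. Cells grown for 5 days with doxycycline (KD) were compared with cells of the same line grown without it (WT), with 3 libraries per condition, so the shRNA cassette was shared by both conditions and doxycycline itself was given only to KD. The model is thus 1 line with 1 shRNA, and the effect of the drug and of the knockdown cannot be told apart from these libraries alone. The study describes its samples as biologically independent, while the labels of the libraries do not say whether those of a condition came from separate cultures, and p-values measure the spread between these libraries.

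The WT libraries summed to 24895998, 35181733 and 29157038 expected counts in the order of their replicate numbers, and the KD libraries to 30143957, 31155103 and 33089945. Levels are given below as CPM, counts brought to a common library size with edgeR's TMM method, and 3 counts corresponded to between 0.0853 and 0.121 CPM before that scaling, a floor that covers counting error only. STAG2 was at 66.5, 34.8 and 28.8 CPM in WT and at 16.0, 7.31 and 6.69 CPM in KD. All KD libraries lay below all WT libraries (log2 fold change −2.12, standard error 0.43, adjusted p = 0.0342, edgeR). The adjusted p of STAG2 rose to between 0.0652 and 0.168 when WT replicate 2, WT replicate 3, KD replicate 2 or KD replicate 3 was left out, and it was 0.000104 with the replicate block, a term for the replicate number in the same edgeR test.

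Of the 8 melanocyte markers, each was detected in every library, among them SOX10, a lineage transcription factor, at 572, 671 and 614 CPM in WT and 324, 474 and 366 CPM in KD. WT replicate 1 stood apart. It held 5.07% mitochondrial counts against 2.12% to 2.94% in the other libraries, and PMEL, a melanosome protein, was at 3370 CPM there against 662 and 684 CPM in the other WT libraries. The 8 melanocyte markers summed to 6311, 1916 and 1861 CPM in WT and to 2606, 1267 and 1195 CPM in KD, with PMEL the most abundant in WT replicates 1 and 3 and KD replicate 1 and SOX10 in the remaining libraries. S100B was the only one of them that passed the test (log2 fold change −1.35, adjusted p = 0.00949, edgeR). All of them but TYR were lower in each KD library than in the WT library of the same replicate number, while TYR went both ways. For SOX10 and S100B all KD libraries lay below all WT libraries, and SOX10 did not pass (adjusted p = 0.151, edgeR). Leukocyte markers were low, with CD3E at 0 in every library, PTPRC at 0 in every library but WT replicate 3, and a sum of 1.81 to 3.70 CPM per library over 5 genes, LYZ being the most abundant in KD. LYZ was at 0.875, 0.864 and 0.473 CPM in WT and at 2.17, 1.97 and 2.17 CPM in KD, without overlap (adjusted p = 0.447, edgeR). The fibroblast marker COL1A1 was at 2.66, 85.1 and 58.1 CPM in WT and 1.4, 19.4 and 17.7 CPM in KD. The other fibroblast markers were low. COL1A2 was at 1.23, 5.28 and 4.11 CPM in WT and 0.996, 1.86 and 0.551 CPM in KD, and PDGFRB was at no more than 0.203 CPM in any library. The part of these differences in the results below was not tested. In bulk RNA, fewer cells with a transcript and less of it per cell cannot be told apart.

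Promoter sequences of 8 of the 9 genes were read from RefSeq (GRCh38.p14), each from 250 bases before to 50 bases after a gene start, and placed on GRCh37, the build of the deposited counts. TRIM22 had no entry, and TRIM34 had 2. They were searched on both strands for GAAA, any 2 bases and GAAA (TTTC, any 2 bases and TTTC when read on the other strand), the core of the interferon-stimulated response element that IRF proteins bind. The letters occurred for 6 of the 8 genes, counted by gene over 9 promoter entries. They occurred in 3.57% of the 35116 RefSeq promoters of the same length, counted by entry. The 30-base stretches that hold them are shown because these genes share the letters. Of these genes, TRIM26 and TRIM34 did not pass the test given below, while TRIM38, without the letters, did. Whether the letters bear on the changes in KD was not tested. They read 5′ to 3′ on the strand of the gene, with the matches in capitals.
TRIM5: atagtttatcTTTCACTTTCctgccctgag
TRIM14: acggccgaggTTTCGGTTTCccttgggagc
TRIM21: ctgagcgGAAACTGAAAGTGAAAtagggag
TRIM26: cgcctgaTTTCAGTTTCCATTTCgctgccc
TRIM34: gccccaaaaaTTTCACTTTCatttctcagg
TRIM69: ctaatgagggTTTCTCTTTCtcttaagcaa

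On GRCh37 the stretches lie at chr11:5706312-5706341 (minus strand) for TRIM5, chr9:100881511-100881540 (minus) for TRIM14 and chr11:4414893-4414922 (minus) for TRIM21. Those of the others are chr6:30181355-30181384 (minus) for TRIM26, chr11:5646131-5646160 (plus) for TRIM34 and chr15:45028654-45028683 (plus) for TRIM69. TRIM21 and TRIM26 each hold 2 overlapping matches in a run of 16 bases. The TRIM21 run lies just after the gene start, at bases 18 to 33 of the transcript, and the others lie before a start. Of the matches that lie before a start, those of TRIM5 and TRIM14 are closest to it, with first bases 27 and 26 bases before the start. TRIM34 has the match in 1 of its 2 promoter entries. The letters were not found in the windows of TRIM38 and TRIM56. The shorter motif TTCNNNGAA, the core of the gamma-activated site, was found in 0 of the 8 genes and in 7.66% of all promoters. These are matches of letters and not measured binding sites.

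KD was then compared with WT across all tested genes. Of the 9 TRIM genes, 6 rose in KD, with adjusted p below 0.05 in edgeR's quasi-likelihood test after Benjamini-Hochberg correction for the 15605 genes tested. These were TRIM5, TRIM14, TRIM21, TRIM22, TRIM38 and TRIM69. None was lower, and TRIM26, TRIM34 and TRIM56 did not pass. Among all tested genes, 1.75% were called higher and 0.839% lower, 2.59% in all. The median log2 fold change was 2.01 over the 9 genes and −0.03 over all tested genes. In 7 of the 9 genes all KD libraries lay above all WT libraries, which held for 11.8% of all tested genes, and in 0 the reverse was seen, which held for 10.5%, so that 22.3% of all tested genes had no overlap. With the replicate block, TRIM26 passed as well, which made 7 genes higher and 0 lower, against 5.1% and 4.42% of all tested genes, or 9.52% in both directions. The count fell to 2 when replicate 2 of both conditions was left out and to 0 when replicate 3 of both was left out. Over all tested genes, 57 and 25 were then called in either direction, against 404 with all libraries. The log2 fold changes of the 6 genes ran from 1.33 to 5.49 without replicate 2 and from 1.04 to 4.73 without replicate 3.

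**Figure D1:**
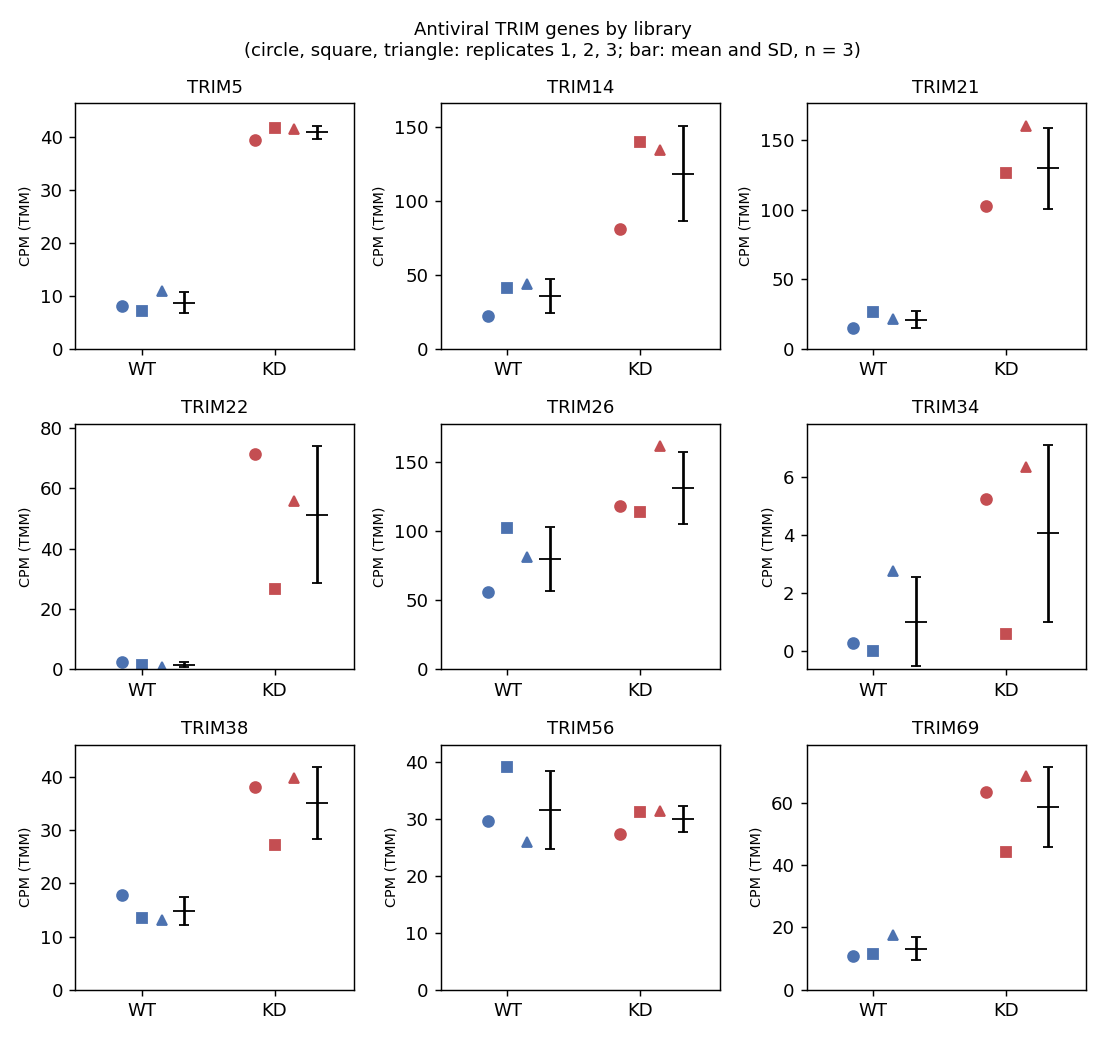
Level of each of the 9 TRIM genes in CPM (TMM-scaled) in the 3 WT (blue) and 3 KD (red) libraries, on a separate linear axis per gene, with mean and SD beside the points. KD and WT points do not overlap in 7 panels, and overlap for TRIM34 and TRIM56.

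The restriction factors that act on incoming or transcribing viruses were measured first. TRIM5, whose long isoform binds the capsid of retroviruses, was at 8.12, 7.01 and 10.9 CPM in WT and at 39.5, 41.7 and 41.6 CPM in KD. The KD libraries were close to each other and each held more than 3 times the level of any WT library. TRIM5 rose by 2.24 on the log2 scale (standard error 0.25, adjusted p = 0.00144, edgeR), from 8.69 ± 2.01 to 40.9 ± 1.23 CPM (SD, n = 3 per group), and it passed the threshold with any 1 library left out. The gene (ENSG00000132256) spans 5684425 to 5959849 on the minus strand of chromosome 11.

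TRIM22, an interferon-inducible factor known to repress HIV transcription, was at 2.28, 1.38 and 0.558 CPM in WT and at 71.5, 26.7 and 55.8 CPM in KD. Its WT levels were low but above the floor, and its KD levels were scattered, with KD replicate 2 lowest. The log2 fold change of KD over WT came to 5.20 (standard error 0.56, adjusted p = 0.00116, edgeR), and the means were 1.41 ± 0.862 (WT) and 51.3 ± 22.7 CPM (KD) (SD, n = 3 per group). Leaving out each library in turn gave log2 fold changes of 4.82 to 5.70. TRIM22 (ENSG00000132274) occupies bases 5710840 to 5758319 of chromosome 11, plus strand, inside the span of the longest TRIM5 transcript on the other strand, and the annotated exons of both genes share no base.

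TRIM69, an interferon-induced inhibitor of vesicular stomatitis virus, was at 10.7, 11.5 and 17.5 CPM in WT and at 63.5, 44.3 and 68.7 CPM in KD. The lowest KD library lay well above the highest WT library. It rose by 2.15 on the log2 scale (standard error 0.28, adjusted p = 0.00329, edgeR), from 13.2 ± 3.68 to 58.8 ± 12.9 CPM (SD, n = 3 per group). TRIM69 (ENSG00000185880) occupies bases 45021186 to 45060027 of chromosome 15, plus strand.

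TRIM21, the cytosolic antibody receptor that sends antibody-coated virus to the proteasome, was at 14.5, 26.6 and 21.4 CPM in WT and at 102, 126 and 161 CPM in KD. It rose by 2.64 on the log2 scale (standard error 0.28, adjusted p = 0.0011, edgeR), with means of 20.8 ± 6.05 (WT) and 129.8 ± 29.2 CPM (KD) (SD, n = 3 per group). The difference exceeded the spread within either condition, and the log2 fold change stayed between 2.43 and 2.85 with any 1 library left out. TRIM21 (ENSG00000132109) occupies bases 4406127 to 4414932 of chromosome 11, minus strand, and no other tested gene had its span within 100 kb.

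TRIM34, a close relative of TRIM5 with restriction activity against some lentiviruses, was the lowest of the 9 in reads. It was at 0.269, 0 and 2.78 CPM in WT and at 5.27, 0.584 and 6.35 CPM in KD, so the conditions overlapped, and its log2 fold change of 2.01 had a standard error of 1.43 (adjusted p = 0.611, edgeR). That estimate was unsteady, with 4.97 when WT replicate 3 was left out, 1.42 to 2.53 when any other library was, 3.34 with the replicate block and 3.89 with limma-voom, none past the threshold. The gene (ENSG00000258659, plus strand of chromosome 11, 5640994 to 5665628) shares 2233 exon bases with the annotated read-through TRIM6-TRIM34, among which RSEM had to divide reads. That read-through was at 2.49, 2.0 and 0.196 CPM in WT and at 2.48, 7.94 and 5.96 CPM in KD (log2 fold change 1.81, adjusted p = 0.366, edgeR). The library with the least TRIM34 in each condition, replicate 2, was not the one with the least read-through. The sum of both was 2.76, 2.0 and 2.97 CPM in WT and 7.75, 8.53 and 12.3 CPM in KD, without overlap. When the read-through counts were added to TRIM34 before the test, the log2 fold change was 1.88 (adjusted p = 0.0439, edgeR).

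**Figure D2:**
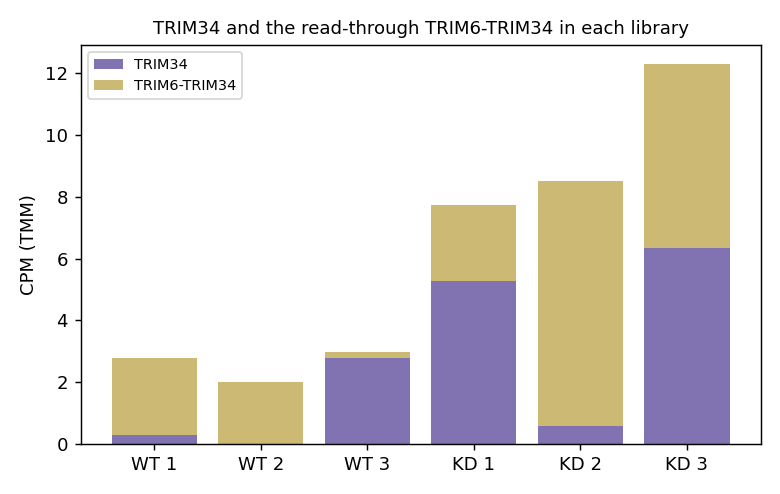
Levels in CPM (TMM-scaled) of TRIM34 (purple) and of the read-through TRIM6-TRIM34 (yellow), stacked, in each of the 6 libraries. The division between them varies from library to library, while the sums lie between 2.0 and 2.97 in WT and between 7.75 and 12.3 in KD.

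Next came the members that act on the sensing pathways. TRIM14, which lacks a RING domain and is known as a mitochondrial adaptor of MAVS, was at 22.1, 40.9 and 43.5 CPM in WT and at 81.2, 139.9 and 134 CPM in KD. Replicate 1 was lowest in both conditions, and all KD libraries were above all WT libraries. TRIM14 rose by 1.74 on the log2 scale (standard error 0.31, adjusted p = 0.0188, edgeR), from 35.5 ± 11.7 to 118 ± 32.4 CPM (SD, n = 3 per group). Its adjusted p was between 0.0628 and 0.107 without WT replicate 2, WT replicate 3, KD replicate 2 or KD replicate 3, and 9.76e-05 with the replicate block (edgeR). The gene (ENSG00000106785, minus strand of chromosome 9, 100831557 to 100881504) shares 422 exon bases with NANS on the other strand, and NANS averaged 70.7 CPM in WT and 71.1 CPM in KD.

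TRIM38, known to promote the turnover of signalling proteins of the Toll-like receptor pathways, was at 17.8, 13.5 and 13.1 CPM in WT and at 38.2, 27.3 and 39.8 CPM in KD. The groups did not overlap, and the log2 fold change of KD over WT came to 1.25 (standard error 0.25, adjusted p = 0.0349, edgeR), with means of 14.8 ± 2.60 and 35.1 ± 6.81 CPM (SD, n = 3 per group). This was the weakest of the 6 calls. Its adjusted p was 0.141 without WT replicate 2, 0.153 without WT replicate 3, 0.109 without KD replicate 1, 0.0711 without KD replicate 2 and 0.2 without KD replicate 3 (edgeR). TRIM38 (ENSG00000112343) occupies bases 25963030 to 25991459 of chromosome 6, plus strand.

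TRIM26, a ligase of the MHC region reported to act on IRF3, was at 55.6, 102 and 80.7 CPM in WT and at 118, 114 and 161 CPM in KD. All KD libraries were above all WT libraries, but KD replicate 2 exceeded WT replicate 2 by little. The log2 fold change of KD over WT came to 0.72 (standard error 0.26), which did not pass the threshold (adjusted p = 0.212, edgeR), and 0.75 with the replicate block (adjusted p = 0.041, edgeR). TRIM26 (ENSG00000234127) occupies bases 30152232 to 30181204 of chromosome 6, minus strand.

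TRIM56, a ligase known to act in cGAS and STING signalling, was at 29.6, 39.1 and 25.8 CPM in WT and at 27.3, 31.1 and 31.3 CPM in KD. The KD values fell within the range of the WT values, and KD over WT gave a log2 value of −0.08 (standard error 0.23, adjusted p = 0.934, edgeR). The 95% interval of the log2 fold change from limma-voom ran from −0.58 to 0.44, so that a rise as large as the estimate of any of the 6 genes called higher lies outside it. For TRIM26 the same interval ran from 0.19 to 1.29, and for TRIM34 from −0.96 to 8.73. TRIM56 (ENSG00000169871) occupies bases 100728762 to 100741248 of chromosome 7, plus strand.

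The 9 genes also differed in how much transcript there was for the length of the gene. Per kb of the canonical transcript of GENCODE 44, TRIM26 was highest in WT at 22.6 ± 6.66 CPM per kb, followed by TRIM21 with 10.8 ± 3.13, TRIM14 with 7.92 ± 2.61 and TRIM69 with 7.62 ± 2.12 CPM per kb (SD, n = 3). TRIM56, TRIM5, TRIM38, TRIM22 and TRIM34 followed in that order, from 2.89 ± 0.625 down to 0.443 ± 0.667 CPM per kb. Libraries of neighbours in this order overlapped for TRIM21 and TRIM14, TRIM14 and TRIM69, TRIM56 and TRIM5, and TRIM22 and TRIM34. In KD, TRIM21 was highest at 67.1 ± 15.1 CPM per kb and did not overlap with TRIM26, which was next at 37.2 ± 7.46 CPM per kb (SD, n = 3). TRIM69, TRIM14, TRIM22 and TRIM5 followed, each overlapping with the gene before it in the order. Lower and separate from TRIM5 came TRIM38 with 3.73 ± 0.723, TRIM56 with 2.74 ± 0.21 and TRIM34 with 1.77 ± 1.34 CPM per kb (SD, n = 3), of which TRIM56 and TRIM34 overlapped. TRIM22 moved from place 8 in WT to place 5 in KD, and TRIM56 from place 5 to place 8. The order depended on the length used. With all annotated exons counted, TRIM69 took place 7 in WT and place 5 in KD in place of 4 and 3, TRIM22 places 9 and 6, and TRIM56 places 4 and 8. The TRIM22 level was then 0.112 CPM per kb in WT and 4.09 CPM per kb in KD.

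**Figure D3:**
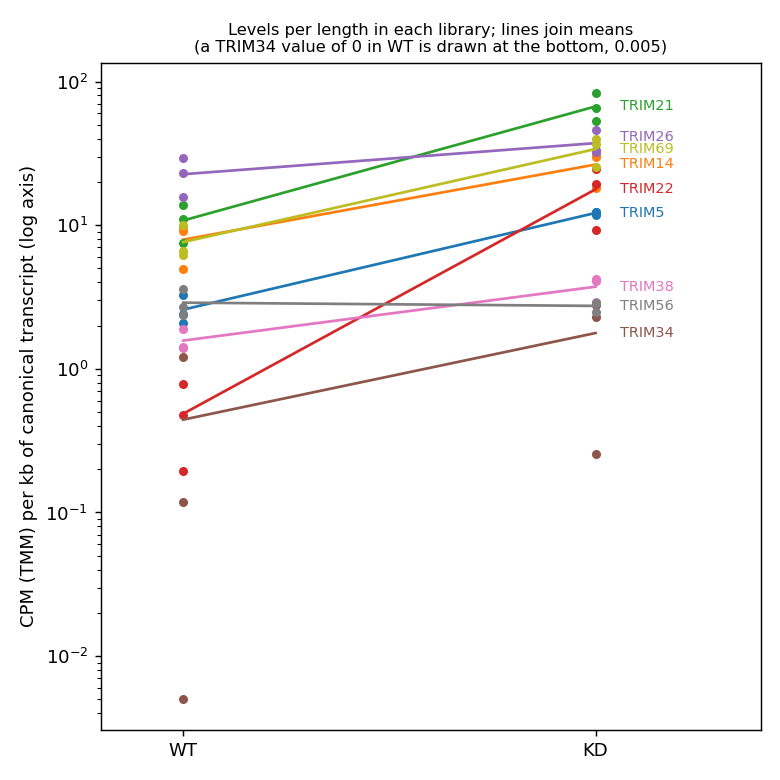
Levels of the 9 genes in CPM (TMM-scaled) per kb of canonical transcript on a log axis, with 3 points per condition and lines joining the means. TRIM22 shows the steepest line, the TRIM56 line is close to flat, and TRIM21 passes TRIM26; the WT library with 0 for TRIM34 is drawn at the bottom.

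Other TRIM genes were compared to see where these 9 differ from their family. The table lists 64 other genes with a TRIM number, of which 17 were at 0 in every library and 39 were tested. Among those 39, the KD level was higher for 1 and lower for 1, against 1.75% and 0.839% of all tested genes, and their median log2 fold change was −0.11. TRIM25, the ligase that attaches ubiquitin to the RNA sensor RIG-I, was at 121, 129 and 111 CPM in WT and at 170.4, 339.8 and 318 CPM in KD (log2 fold change 1.2, standard error 0.26, adjusted p = 0.0486, edgeR). KD replicate 1 was closest to the WT values, and the call was lost when any 1 library but KD replicate 1 was left out, with an adjusted p up to 0.239. TRIM48 was at 13.2, 6.24 and 6.44 CPM in WT and at 0.934, 1.42 and 0.796 CPM in KD and fell by 3.04 on the log2 scale (standard error 0.53, adjusted p = 0.0167, edgeR). It was not called without WT replicate 3 or without any of the KD libraries, with an adjusted p up to 0.0993. With the replicate block, 3 of the 39 were higher (TRIM25, TRIM4 and TRIM8) and 4 lower (TRIM48, TRIM16L, TRIM2 and TRIM63), against 5.1% and 4.42% of all tested genes. TRIM28, the corepressor of KRAB zinc finger proteins and the most abundant gene of the family here in reads, was at 468, 983 and 1008 CPM in WT and at 501, 760 and 834 CPM in KD (adjusted p = 0.833, edgeR).

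**Figure D4:**
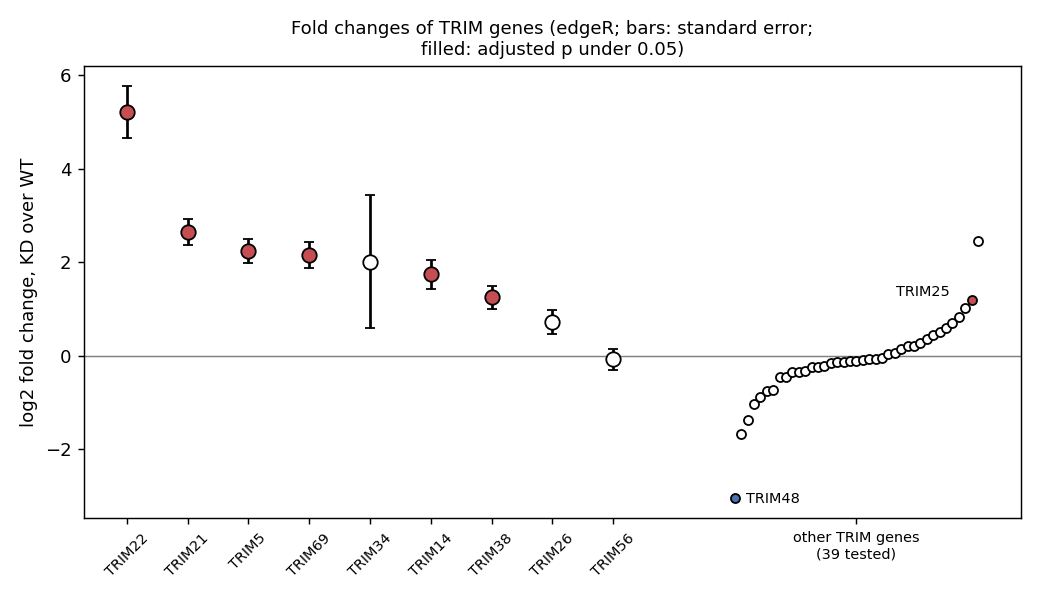
Log2 fold change of KD over WT from edgeR for the 9 TRIM genes with standard errors (left, in descending order) and for the 39 other tested TRIM genes (right, sorted). Filled points passed an adjusted p of 0.05, which 6 of the 9 and 2 of the 39 did, and the other family members lie mostly near 0.

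Proteins that these TRIM ligases are known to work with were taken as a list of 29 genes, of which 28 were tested. Of these, 4 were higher in KD and 0 lower, against 1.75% and 0.839% of all tested genes, with a median log2 fold change of 0.22. Of the 4 nucleic acid sensors, DDX58 (RIG-I) and IFIH1 (MDA5) were higher, with log2 fold changes of 4.28 (standard error 0.36, adjusted p = 0.000236, edgeR) and 3.62 (standard error 0.40, adjusted p = 0.00132, edgeR). DDX58 differed most, from 2.87, 4.61 and 2.29 CPM in WT to 79.1, 44.3 and 68.0 CPM in KD. The cGAS gene MB21D1 averaged 5.76 ± 0.717 (WT) and 7.56 ± 2.32 CPM (KD) and did not pass (SD, n = 3 per group). Of the 3 transcriptional regulators, IRF7 and NLRC5, the activator of MHC class I genes, were higher, with log2 fold changes of 3.44 and 2.7, while IRF3 had 0.09. IFIH1 stood at 10.6, 3.77 and 6.92 CPM in WT and at 117, 64.6 and 79.5 CPM in KD. NLRC5 stood at 15, 20.1 and 22.6 CPM in WT and at 99.2, 115 and 163 CPM in KD, and the conditions overlapped for neither gene. The 4 genes stayed past the threshold with any 1 library left out.

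Adaptors, kinases and ubiquitin enzymes of the list did not pass. MAVS, to which TRIM14 binds, averaged 44.2 ± 3.69 (WT) and 44.5 ± 7.88 CPM (KD) (SD, n = 3 per group). TMEM173 (STING) had a log2 fold change of 0.27 (adjusted p = 0.718, edgeR). TICAM1 (TRIF), the adaptor of Toll-like receptor 3, had one of 0.90, which passed with the replicate block (adjusted p = 0.0287 against 0.142 without it, edgeR). The 7 ubiquitin-conjugating (E2) genes, among them UBE2N that builds chains with TRIM5 and TRIM21, had log2 fold changes from −0.26 to 0.52, and the 7 kinase genes and their binding proteins from −0.74 to 0.54.

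Upstream, 6 genes of interferon alpha signalling were taken as a list, and 2 of the 6 rose in KD while 0 fell, against 1.75% and 0.839% of all tested genes. IRF9, a DNA-binding subunit that directs transcription after interferon, had a log2 fold change of 2.66 (adjusted p = 6.49e-05, edgeR). STAT2, its signalling partner, stood at 112, 94.4 and 68.1 CPM in WT and at 323, 381 and 351 CPM in KD (log2 fold change 1.94, standard error 0.23, adjusted p = 0.00184, edgeR). The lowest KD library of STAT2 was far above its highest WT library. The receptor chains IFNAR1 and IFNAR2 and the kinases JAK1 and TYK2 had log2 fold changes between −0.22 and 0.43 and did not pass.

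By position, TRIM5, TRIM22 and TRIM34 form a cluster on chromosome 11 together with TRIM6, a paralog that had at most 2.15 CPM in any library. RSEM divides reads that match several genes, and how many reads these related genes share was not tested. Within 100 kb of the 9 genes there were 20 other tested genes. In KD, 2 of these rose and 0 fell, against 1.75% and 0.839% of all tested genes. B2M, the invariant chain of MHC class I, lies 10137 bases from TRIM69 and was at 335, 305 and 284 CPM in WT and at 1752, 1308 and 1072 CPM in KD (log2 fold change 2.16, standard error 0.24, adjusted p = 0.00132, edgeR). VGF, a secreted neuropeptide precursor, lies 64542 bases from TRIM56 and was at 103, 86.5 and 90.3 CPM in WT and at 661, 367 and 467 CPM in KD (log2 fold change 2.42, standard error 0.25, adjusted p = 0.00104, edgeR). TRIM56 thus lay beside a gene that rose while its own level did not pass the test.

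Across the 6 libraries, the mean standardised log2 CPM of the 9 genes was compared with each of 13526 other genes with a mean of at least 1 CPM. The 5 genes most like it were SP110, a nuclear body protein (r = 0.997), MOB3C (r = 0.996), RP11-284F21.7 (r = 0.995), UBE2L6, the E2 enzyme of ISG15 (r = 0.994), and SAMHD1, which breaks down nucleotides needed by retroviruses (r = 0.993). SAMHD1 averaged 15.4 ± 5.92 (WT) and 122 ± 32.8 CPM (KD) (SD, n = 3 per group). These correlations rest on 6 points that fall into the 2 conditions and are given as a description without a p. Among the 9 genes, r with the mean of all 9, to which each contributes, was highest for TRIM21 at 0.99, and it was 0.651 for TRIM34 and −0.0423 for TRIM56.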

How the data were processed

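RNA-seq libraries of 3 WT and 3 KD samples of M14 cells were used. Per the labels and the methods, polyadenylated RNA was made into directional libraries, reads were mapped to hg19 with STAR, and the authors deposited expected counts per gene from RSEM, not scaled, in which reads that match several genes are divided. The annotation release and the strand setting are not given in the sources used here. The counts were rounded to whole numbers, edgeR's filterByExpr left 15605 genes and KD was tested against WT in R 4.3.3 with edgeR 4.0.16 (TMM, quasi-likelihood, Benjamini-Hochberg over all tested genes, threshold 0.05). Standard errors were taken as the log2 fold change over the root of F. An exact two-sided permutation test of 3 against 3 cannot give a p below 0.1, which 7 of the 9 genes and STAG2 reached. Gene spans and exons came from GENCODE 44 lifted to GRCh37.

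No replicate block was used in the test, as no pairing is described. Deviations of same-numbered WT and KD libraries from their condition's mean correlated over the tested genes with r of 0.380, 0.225 and 0.190 for replicates 1 to 3. Between different numbers, r was 0.120 for WT replicate 2 with KD replicate 3 and 0.0992 for WT replicate 3 with KD replicate 2. With replicate 1 on either side it ran from −0.264 to −0.218. These values leave unsettled whether replicates 2 and 3 are paired by number. The unblocked test was kept as the main one, and blocked values are given where they change a call.

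Alternatives were the replicate block, DESeq2 1.42.0, limma-voom (limma 3.58.1), upper-quartile scaling, no filter, at least 10 counts in every library, unrounded counts, a threshold of 0.01, a log2 fold change of 1 or more in size, read-through counts added, and leaving out each library or replicate number. Named genes are STAG2, the 9 genes, up to 6 called genes per list and direction, read-throughs of the 9 and the 5 most alike. MAVS, MB21D1, TMEM173, TICAM1, IRF3, UBE2N, TRIM28, NANS, TRIM6 and the genes named only for the replicate block were chosen after their values were seen. The 9 genes and all lists were chosen with earlier results of these data known. The edgeR step was tested on simulated data. Some results are left out of this account.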

Additional observations from a re-analysis of the deposited data

How the results depend on the processing

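With each library or replicate number left out, the count of the 9 TRIM genes called higher ran from 0 to 6, that of the pathway partners from 1 to 4 and that of the interferon alpha signalling genes from 1 to 2, and the log2 fold change of STAG2 ran from −2.63 to −1.68. The count of all genes called (404) was 25 without replicate 3 of both conditions, 57 without replicate 2 of both, 757 without replicate 1 of both and 531 without WT replicate 1. It was 1486 with the replicate block, 988 with DESeq2 and 1103 without a filter. Of the 9 TRIM genes, 6 were higher without replicate 1 of both or WT replicate 1, 2 without replicate 2 of both and 0 without replicate 3 of both. Under the remaining alternatives between 4 and 7 were higher, and 0 were lower under any. Among the other TRIM genes, the count higher (1) was 3 with the replicate block, 2 with DESeq2, 2 without a filter, 0 at an adjusted p under 0.01 and from 0 to 2 with libraries left out. The count lower (1) was 4 with the block, 3 with DESeq2, 3 without a filter, 0 with limma-voom, 0 at an adjusted p under 0.01 and from 0 to 3 with libraries left out. TRIM56 turned to 0.11 without WT replicate 2 and to 0.08 without replicate 2 of both and ran down to −0.25, without passing. TRIM26 passed with the block and without a filter (adjusted p = 0.0489, edgeR). The block changed no other call among the 9 genes. The cause of these changes was not tested. TRIM34 had few reads, at 0 to 6.35 CPM, and passed when the read-through counts were added (adjusted p = 0.0439, edgeR).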
